A study of Mus musculus with 21 samples.

Results

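Caspases are cysteine proteases that cut their substrates after aspartate, and the family was followed here across the liver arrays of the study. The members were all genes whose symbol on the array platform is a caspase, which gave 8 genes with 10 probe sets, of 12393 genes named from 1 symbol. Other family members were not analysed here. The family was singled out because Casp12 and Casp4 stood out between genotypes in these same data, so every KO against control value of a caspase below is a description without a test. The arrays measured total RNA of male mouse liver at 9 months of age. KO mice were Mdr2-/- on an FVB129P2 strain and lacked the canalicular phospholipid transporter Mdr2, which is encoded by Abcb4, a model of chronic liver inflammation. Control mice were labelled FVB129P2/FVBNJ, so genotype and strain background, including any strain difference in the sequence that a probe set matches, cannot be told apart. This holds for every KO minus control value, those of Casp12 and Casp4 among them. All mice underwent a partial hepatectomy of 30%, and the lobe removed at surgery was the day 0 sample. The KO groups held 6 liver samples on day 0, 3 on day 2 and 3 on day 6, and the control groups held 3 on each of days 0, 2 and 6. The later samples came from 6 KO and 6 control mice, and for 9 mice the day 0 lobe was measured too.

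Caspases fall into 2 broad classes. Inflammatory caspases are activated on cytosolic platforms such as the inflammasome, process precursors of the IL-1 family and cut gasdermin D, whose fragment opens pores in the plasma membrane (pyroptosis). Apoptotic caspases form a cascade in which initiators, activated by death receptors or by cytochrome c released from mitochondria, switch on executioners. In the liver, Kupffer cells and recruited macrophages carry much of the inflammasome machinery, and hepatocytes can die through the death receptor route. Casp1 is the inflammasome protease that matures interleukin 1 beta and interleukin 18. Casp4, known in the mouse for its activation by cytosolic lipopolysaccharide, starts pyroptosis. Casp12 lies at the endoplasmic reticulum and has been linked in the mouse to stress of that organelle and to dampening of inflammasome activity.

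Casp1, Casp4 and Casp12 lie next to one another on the plus strand of mouse chromosome 9. The sequences before their starts are shown because the 3 genes are the members with the widest gaps between genotypes, and they allow a comparison of what stands upstream of each. They are the RefSeq reference (GRCm38.p6), not the sequence of these mice. Capitals mark matches to any of 6 searched motifs, on either strand, counted within the 250 bases before the start. The windows are chr9:5298267-5298516 for Casp1, chr9:5308599-5308848 for Casp4 and chr9:5345226-5345441 for Casp12. The last 34 bases of the Casp12 window are not printed because they lie inside the bounds of the annotated gene.
Casp1: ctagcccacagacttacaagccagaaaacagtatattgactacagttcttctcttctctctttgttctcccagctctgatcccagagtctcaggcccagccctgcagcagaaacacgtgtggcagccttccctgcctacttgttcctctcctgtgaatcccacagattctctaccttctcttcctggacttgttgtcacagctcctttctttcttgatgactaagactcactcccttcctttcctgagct
Casp4: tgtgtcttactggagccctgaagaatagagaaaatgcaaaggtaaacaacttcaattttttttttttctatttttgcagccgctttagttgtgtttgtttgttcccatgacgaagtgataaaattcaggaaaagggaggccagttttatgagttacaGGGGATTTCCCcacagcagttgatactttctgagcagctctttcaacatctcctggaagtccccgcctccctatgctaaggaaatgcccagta
Casp12: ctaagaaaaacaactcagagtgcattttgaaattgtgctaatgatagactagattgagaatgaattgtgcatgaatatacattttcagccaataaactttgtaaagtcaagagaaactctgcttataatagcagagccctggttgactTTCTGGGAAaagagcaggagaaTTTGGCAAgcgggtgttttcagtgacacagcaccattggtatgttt
In Casp4 the capitals are overlapping matches to the NF-kappaB motif, which 3.9% of all 32851 promoter windows of this length held. In Casp12 they are a match to the interferon gamma activated site TTCNNNGAA, held by 7.02% of windows, and 1 to the C/EBP motif TTNNGCAA, held by 9.56%. A second match to TTCNNNGAA, TTCTGGGAA, ran from base -36 to base -28 and crossed the annotated gene start, so it is not in the printed stretch. None of the windows of the 3 genes matched the interferon-stimulated element core GAAANNGAA (7.13% of windows), the AP-1 motif TGANTCA (6.75%) or the TATA box TATAAA (12.4%), and the Casp1 window matched none of the 6. A match in these letters is a description and not a binding site.

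All values are log2 expression values, and a value at or under 4 was treated as near background. Abcb4 lay between 7.25 and 8.96 in the 12 KO arrays and between 9.23 and 10.33 in the 9 control arrays, with no overlap, and was lower in KO livers on all 3 days (-1.58, -1.99 and -2.41; limma, adjusted p = 0.00126, 0.00266 and 0.000447). It stayed well above background in KO livers, and whether its probes fall inside the mutated stretch was not examined. All 8 hepatocyte markers measured were above 4 on every array, and Alb, the gene for albumin, was between 14.95 and 15.12 in KO livers and between 14.66 and 15.12 in control livers. Among markers of other cell types, 5 of 8 T and NK cell markers (Cd3d, Cd3e, Cd3g, Cd8a and Nkg7) and 3 of 6 neutrophil markers (Mpo, Elane and Cxcr2) were at or under 4 on every array. Of the 3 tested neutrophil markers, 2 rose in control livers on day 2 against day 0, beside 9.51% of all genes called in either direction. S100a8 and S100a9 rose by 3.99 and 4.28 (limma, adjusted p = 0.0208 and 0.0184), and Csf3r averaged 3.78 on day 0 and 3.76 on day 2. The S100a8 and S100a9 calls were lost in 6 and 7 of 33 alternative settings. Among these were leaving out control mouse 265 on either day or control mouse 303 on day 0. For macrophages and monocytes 9 of 14 markers were above 4 on every array. In 3 arrays the 3' and 5' probe sets of Gapdh differed by more than 1 log2 unit, a measure of RNA quality: a KO day 0 array (mouse 337, 2.03) and 2 of the 3 control day 2 arrays (mouse 263, 1.58, and mouse 265, 9.5).

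Casp12 was the caspase with the widest gap between genotypes on each of the 3 days. On the brighter of its 2 probe sets, KO livers ranged on day 0 between 8.33 and 9.10 with a median of 8.77, and measured 7.86, 9.07 and 8.35 on day 2 and 8.65, 9.56 and 9.56 on day 6. Control livers measured 4.19, 3.92 and 3.05 on day 0, 4.89, 3.05 and 4.01 on day 2, and 3.92, 3.67 and 3.05 on day 6. Every KO array was far above every control array, and 6 of the 9 control arrays were at or under background. The difference, KO minus control, was 5.03 ± 0.36 on day 0, 4.44 ± 0.42 on day 2 and 5.71 ± 0.42 on day 6 (standard error, SE, from the model of all 6 groups). Without the 3 arrays of high Gapdh difference, which leaves a single control liver on day 2, the day 2 differences were 5.38 for Casp12, 3.66 for Casp4 and 2.04 for Casp1. With all 3 control arrays of day 6 near background, the day 6 difference is at least 5.26 over the level of 4. The other probe set gave the same picture: KO livers lay between 6.60 and 8.79 and control livers between 2.51 and 3.23. Its differences were 5.12 ± 0.28 on day 0, 4.72 ± 0.33 on day 2 and 5.22 ± 0.33 on day 6, at least 3.38 over the level of 4 on any of these days.

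Casp4 was also separated by genotype, with more spread among livers. KO livers ranged on day 0 between 5.65 and 7.26 with a median of 6.16, and measured 4.69, 7.40 and 7.56 on day 2 and 7.12, 7.93 and 7.12 on day 6. Control livers measured 3.03, 1.65 and 1.45 on day 0, 2.76, 2.89 and 3.77 on day 2, and 4.32, 3.45 and 2.72 on day 6. The lowest KO liver (mouse 250, day 2) stood above the highest control liver (mouse 303, day 6), so the genotypes did not overlap on any day. The differences were 4.25 ± 0.56 on day 0, 3.41 ± 0.65 on day 2 and 3.89 ± 0.65 on day 6. Since all control arrays of days 0 and 2 were at or under 4, the first is at least 2.30 and the second at least 2.55 over that level. Mouse 250 was low on day 2, and without it the day 2 difference was 4.34. Casp4 passed the filter on low values through its KO arrays.

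Casp1 was above background in every liver. KO livers ranged on day 0 between 6.87 and 7.93 with a median of 7.13, and measured 6.80, 7.15 and 7.29 on day 2 and 8.05, 8.25 and 7.56 on day 6. Control livers measured 5.59, 4.88 and 4.50 on day 0, 4.62, 5.04 and 4.58 on day 2, and 7.74 (mouse 303), 6.02 (mouse 392) and 4.87 (mouse 393) on day 6. On days 0 and 2 all KO livers were above all control livers, and on day 6 the control liver of mouse 303 stood above the lowest KO liver. The differences were 2.28 ± 0.42 on day 0, 2.33 ± 0.49 on day 2 and 1.74 ± 0.49 on day 6. The day 6 value rests on single control arrays: it was 2.51 without mouse 303 and 1.07 without mouse 393.

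**Figure D1:**
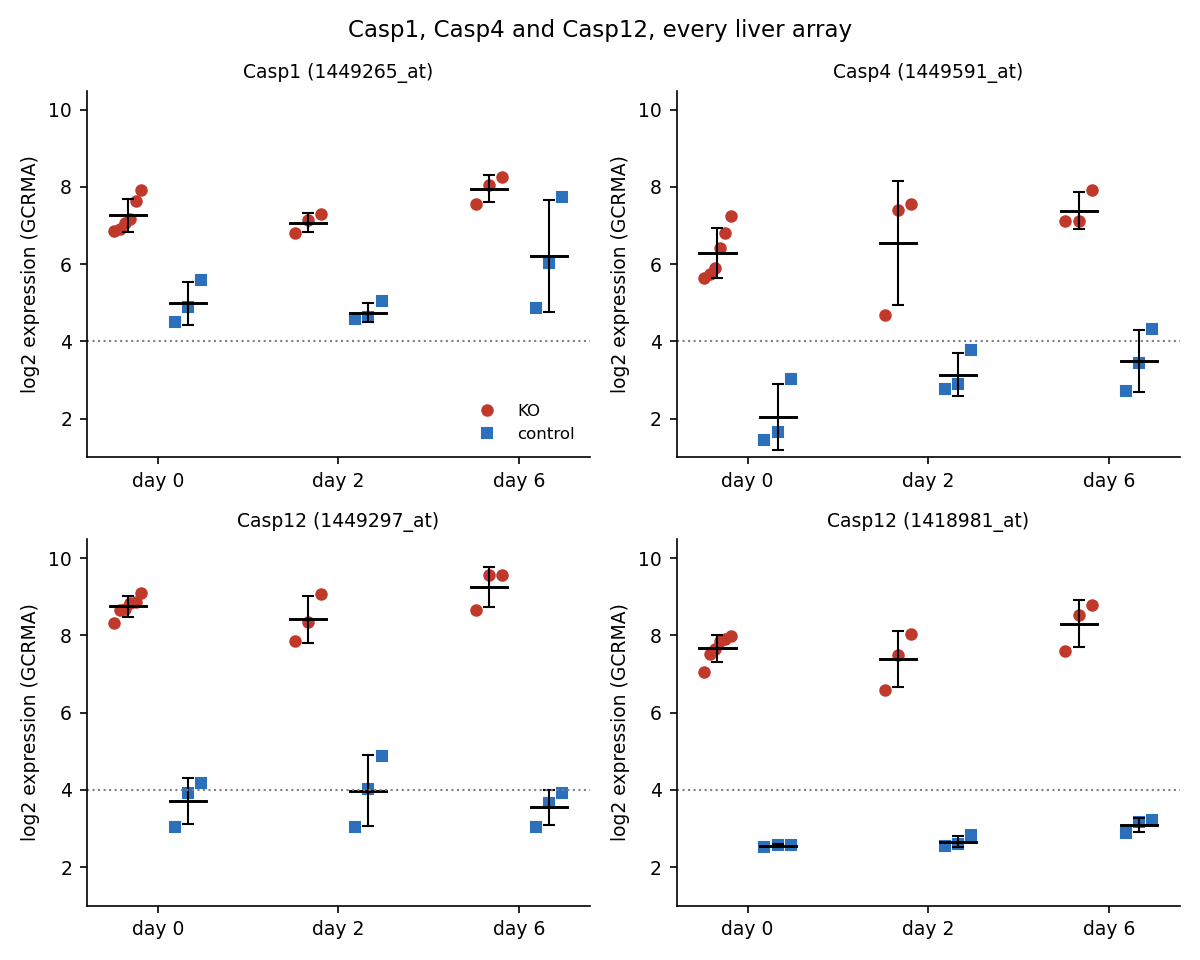
Log2 expression of Casp1, Casp4 and Casp12 (2 probe sets) on every array, with KO (circles) left of control (squares) on each day; lines are group means and bars are SD (n = 6 for KO day 0, 3 otherwise), and the dotted line is the level of 4. KO and control points of Casp4 and Casp12 do not overlap on any day, and for Casp1 the control liver at 7.74 on day 6 lies among the KO livers.

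Among the apoptotic initiators, Casp8, which is activated at death receptors, had overlapping values in the genotypes on every day. KO livers ranged on day 0 between 7.48 and 8.13 with a median of 7.78, and measured 7.74, 7.22 and 8.01 on day 2 and 7.81, 8.12 and 8.01 on day 6. Control livers measured 7.87, 7.87 and 7.70 on day 0, 7.04, 8.33 and 8.95 on day 2, and 7.75, 8.33 and 7.91 on day 6. The genotypes overlapped on all 3 days, and the control spread was widest on day 2. The differences were -0.03 ± 0.29, -0.45 ± 0.34 and -0.02 ± 0.34 on days 0, 2 and 6, with 95% intervals that ran between -0.64 and 0.58 on day 0, between -1.16 and 0.26 on day 2 and between -0.72 and 0.69 on day 6.

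Casp9, the protease of the apoptosome that forms when cytochrome c leaves mitochondria, had a lower mean in KO livers on every day. On the brighter of its 2 probe sets, KO livers ranged on day 0 between 5.78 and 6.81 with a median of 6.30, and measured 6.42, 5.78 and 5.26 on day 2 and 5.92, 5.51 and 5.49 on day 6. Control livers measured 6.61, 6.81 and 6.83 on day 0, 7.11, 5.59 and 5.72 on day 2, and 6.41, 5.95 and 6.55 on day 6. The groups overlapped on days 0 and 2, while on day 6 the highest KO liver (5.92) was just under the lowest control liver (5.95). The differences were -0.50 ± 0.32, -0.32 ± 0.37 and -0.66 ± 0.37 on days 0, 2 and 6. The second Casp9 probe set was near background on all arrays, with 2.38 to 2.59 in KO livers and 2.44 to 2.98 in control livers.

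Casp2, an initiator tied to the PIDDosome and to DNA damage, was close to the background level. KO livers ranged on day 0 between 4.20 and 4.83 with a median of 4.32, and measured 4.20, 4.82 and 4.37 on day 2 and 4.65, 5.0 and 4.35 on day 6. Control livers measured 3.08, 4.24 and 3.78 on day 0, 3.10, 4.05 and 4.90 on day 2, and 5.20, 3.52 and 3.90 on day 6. All KO arrays but only 4 of 9 control arrays were above 4, and the genotypes overlapped on each day. The differences were 0.70 ± 0.37, 0.45 ± 0.42 and 0.46 ± 0.42 on days 0, 2 and 6.

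Casp6, an executioner that cuts nuclear lamins, was above background in every liver. KO livers ranged on day 0 between 7.71 and 8.06 with a median of 7.82, and measured 7.49, 7.59 and 7.33 on day 2 and 7.79, 7.46 and 7.60 on day 6. Control livers measured 7.72, 7.57 and 6.14 on day 0, 6.74, 8.13 and 7.86 on day 2, and 7.49, 8.07 and 7.08 on day 6. The KO livers clustered tightly inside the control range on days 2 and 6, and on day 0 all but 1 KO liver (mouse 337, 7.71) were above the highest control liver. The differences were 0.72 ± 0.32, -0.11 ± 0.36 and 0.07 ± 0.36 on days 0, 2 and 6. Without the control day 0 liver at 6.14 (mouse 303), the day 0 difference was 0.22. Casp14, a caspase of the cornifying epidermis, lay between 2.38 and 2.46 in KO livers and between 2.42 and 3.28 in control livers, at or under 4 on all arrays, and was not tested.

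**Figure D2:**
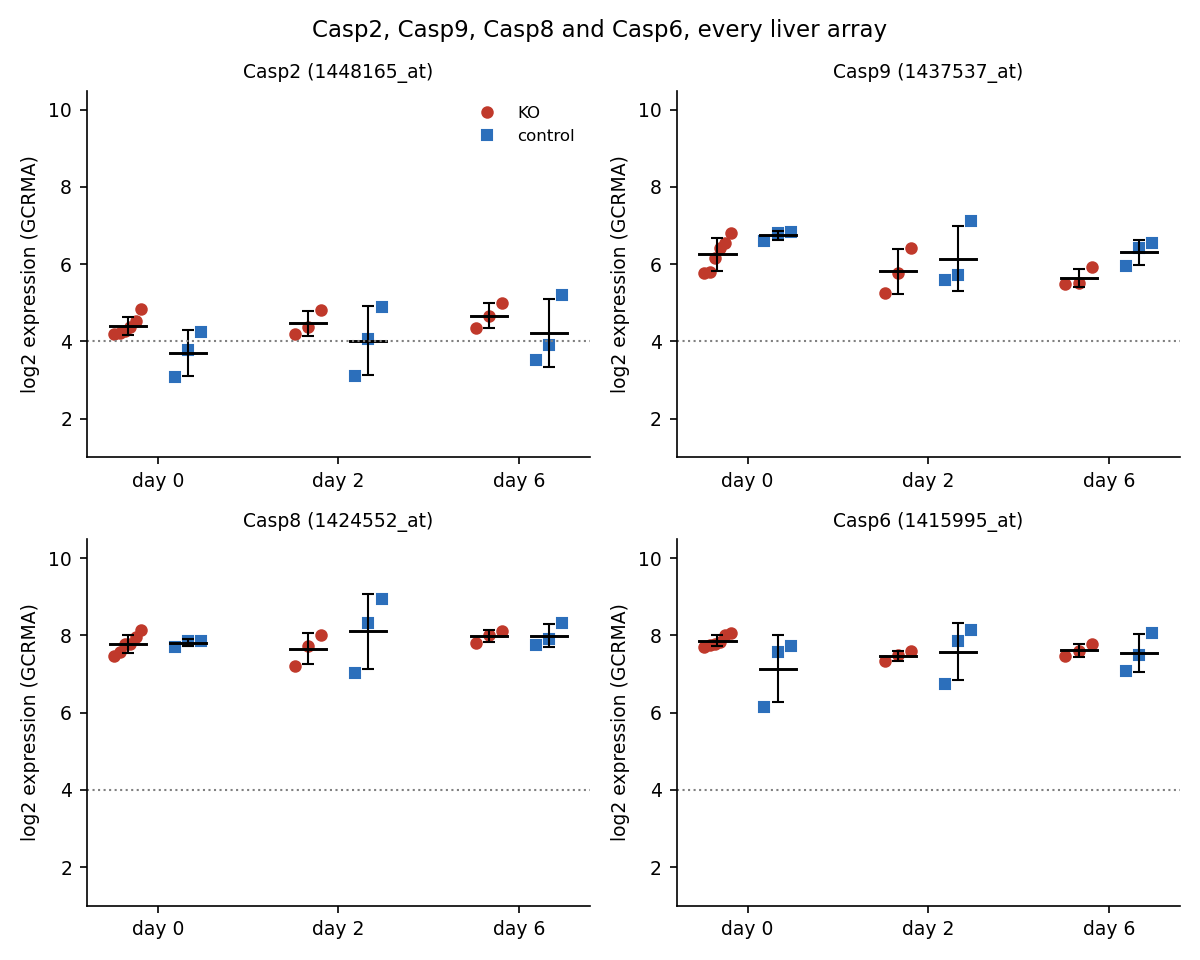
Log2 expression of the apoptotic caspases Casp2, Casp9, Casp8 and Casp6 on every array, drawn as for the inflammatory ones, with KO (circles) left of control (squares), group means with SD and the level of 4 dotted. KO and control points overlap on each day for Casp2, Casp8 and Casp6, and for Casp9 the KO livers of day 6 lie under the control livers, with 5.92 just below 5.95.

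Side by side, the inflammatory caspases had differences between 1.74 and 5.71 over the 3 days and the apoptotic ones between -0.66 and 0.72. The values do not measure one gene's amount against another's, only each gene's gap between genotypes. On each day, 3 of the 7 caspases measured above background had groups that did not overlap. These were Casp1, Casp4 and Casp12 on days 0 and 2, and Casp4, Casp12 and, with KO lower, Casp9 on day 6. Of all 7320 genes tested, 19.8%, 20.1% and 19.5% had groups that did not overlap on days 0, 2 and 6, and nothing is read from the comparison because the family was chosen on this contrast. The median caspase difference was 0.72, 0.45 and 0.46 on days 0, 2 and 6, beside medians of 0.02, -0.03 and -0.03 over all genes. For the same reason nothing is read from these medians. The caspase median was the value of Casp6 on day 0 and that of Casp2, a gene close to background, on days 2 and 6. In the 32 other settings tried, the differences of Casp1, Casp4 and Casp12 kept their sign on all 3 days. Smaller differences did not always: the sign turned in 4 settings for Casp8 on day 0 and 2 on day 6, in 2 for Casp6 on day 2 and 3 on day 6, in 1 of 31 for Casp2 on day 2 and in 2 for Casp9 on day 2.

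**Figure D3:**
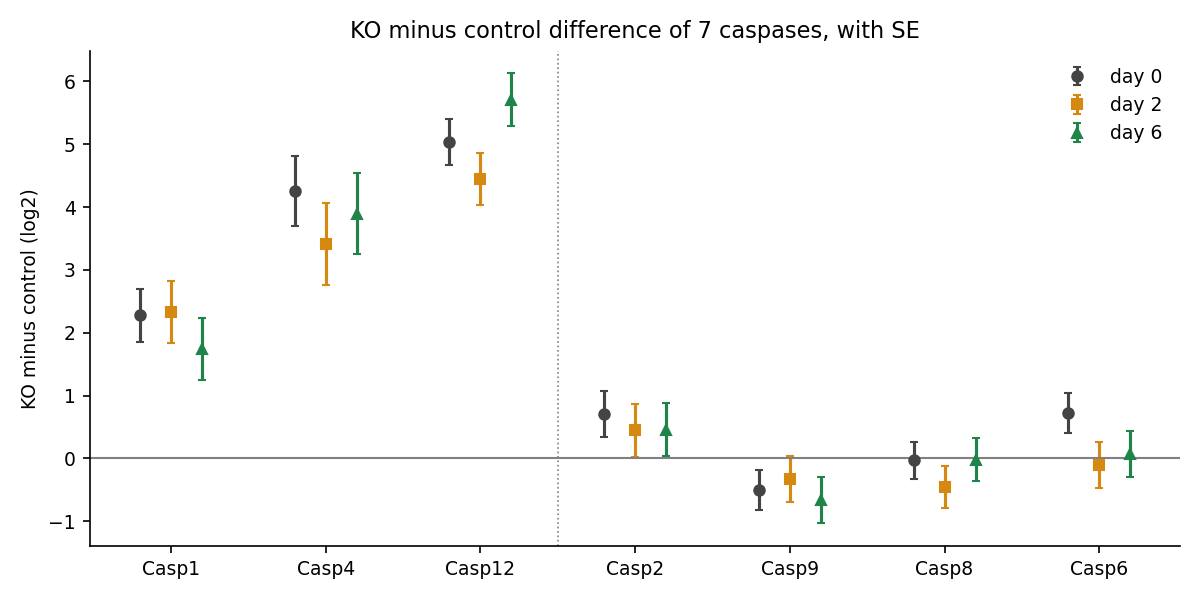
KO minus control difference in log2 expression of 7 caspases on day 0 (circles), day 2 (squares) and day 6 (triangles), with bars for the SE of the model; the dotted line parts inflammatory from apoptotic caspases. Casp1, Casp4 and Casp12 lie between 1.74 and 5.71 and the other 4 between -0.66 and 0.72.

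The time course after resection was not used to choose the family and was tested within each genotype. In KO livers 0 of 7 caspases passed the test on day 2 against day 0 or on day 6 against day 0, beside 0% and 0.137% of all genes (limma, adjusted p). No caspase reached an unadjusted p under 0.05 in either. In control livers 0 of 7 passed on day 2 or on day 6, although 9.51% and 2.86% of all genes did. On day 6 against day 0 in controls, Casp1 (1.22 ± 0.49, adjusted p = 0.206) and Casp4 (1.45 ± 0.65, adjusted p = 0.261) were the 2 caspases with an unadjusted p under 0.05, and none had one on day 2. For Casp4 all 3 control values of day 0 and 2 of the 3 of day 6 were at or under 4. Its rise thus lay mostly in the range near background. Control calls moved with single arrays. Without mouse 393 on day 6, Casp1 passed (1.89, adjusted p = 0.0194). Without mouse 263 on day 2, whose Gapdh probe sets differed by 1.58, Casp8 was higher on day 2 (0.83, adjusted p = 0.0397) and Casp9 lower (-1.10, adjusted p = 0.0355). The control day 2 arrays left then still include mouse 265. Its Gapdh probe sets differed by 9.5, the most of all arrays, and its Casp8 value (8.95) was the highest of that group.

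Since the same mice were sampled on day 0 and later, each mouse can be set against itself. Casp4 was higher on day 6 in all 3 KO mice, by 1.47, 1.51 and 1.23 in mice 312, 332 and 337. Casp1 was higher by 0.87, 0.62 and 0.49 in the same mice, and the differences for Casp12 were -0.01, 0.46 and 1.23. These are the 3 inflammatory caspases, and the group differences on day 6 against day 0 in KO livers were 1.10 ± 0.56 for Casp4 (adjusted p = 0.937), 0.69 ± 0.42 for Casp1 (adjusted p = 0.987) and 0.51 ± 0.36 for Casp12 (adjusted p = 1). The 95% interval for Casp4 ran between -0.08 and 2.27, which includes 0. On day 2 the KO mice went different ways for Casp4, with differences of -2.11 in mouse 250, 1.65 in mouse 254 and 0.30 in mouse 258. Their Casp1 differed by -0.12, -0.78 and 0.42, and their Casp12 by -0.83, 0.19 and -0.50. Mouse 250 was the lowest of the 3 for Casp4 and Casp12 on day 2, and for Casp1 too. The 2 control mice measured on days 2 and 0, 263 and 265, differed by -0.27 and 2.12 for Casp4, by -0.97 and -0.30 for Casp1 and by 0.70 and 0.09 for Casp12. The Casp4 values of both mice were under 4 on both days.

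Among the apoptotic caspases of the KO mice on day 2, Casp2, Casp6 and Casp9 had one direction in all 3 mice. Casp8 did not, with -0.21, -0.55 and 0.53 in mice 250, 254 and 258. Casp2 differed little, by -0.03, -0.01 and -0.15 in the same mice. Casp6 was lower in all 3 mice, with differences of -0.26, -0.25 and -0.73, and all 3 day 2 livers were under all 6 day 0 livers (group difference -0.39 ± 0.32, adjusted p = 1). The share of all genes with such a separation over these days was not counted, so nothing is read from it. Casp9 was lower in all 3 as well, with differences of -0.39, -0.65 and -0.52 (-0.44 ± 0.32, adjusted p = 0.987). On day 6 the Casp9 differences were 0.13, -0.65 and -1.07 in KO mice 312, 332 and 337 (-0.62 ± 0.32, adjusted p = 0.937). None of these passed the test.

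Whether the response to resection differed between genotypes was tested as an interaction. For day 2, 0 of 7 caspases passed, beside 0% of all genes, and for day 6, 0 of 7 passed, beside 0.164% of all genes (limma, adjusted p), and no caspase had an unadjusted p under 0.05 in either. The day 2 response, KO minus control, was -0.59 ± 0.55 for Casp12, -0.84 ± 0.86 for Casp4 and 0.06 ± 0.65 for Casp1 (adjusted p = 0.632, 0.66 and 0.978), and among the apoptotic caspases -0.83 ± 0.48 for Casp6 (adjusted p = 0.434). The day 6 response of Casp12, KO minus control, was 0.68 ± 0.55 (adjusted p = 1), that of Casp4 was -0.36 ± 0.86 (adjusted p = 1) and that of Casp1 was -0.53 ± 0.65 (adjusted p = 1). With 3 arrays in most groups the 95% intervals were wide, between -0.48 and 1.84 for Casp12 and between -2.15 and 1.44 for Casp4.

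**Figure D4:**
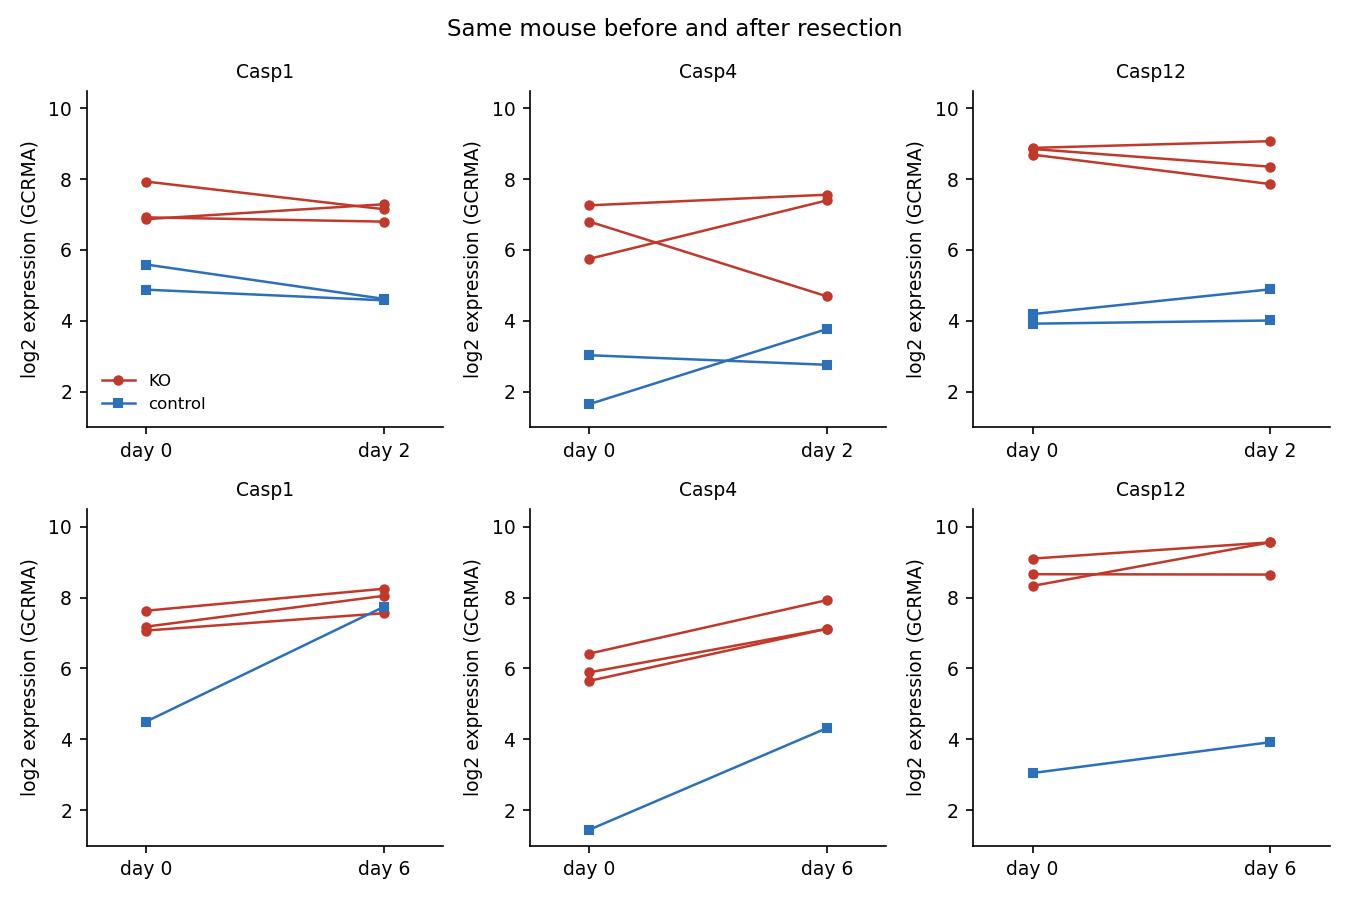
Log2 expression of Casp1, Casp4 and Casp12 in the same mouse on day 0 and on day 2 (top, 3 KO and 2 control mice) or day 6 (bottom, 3 KO mice and 1 control mouse), with KO as circles and control as squares. Casp4 is higher on day 6 in all 3 KO mice, and the control mouse is 3.24 higher for Casp1 on day 6, in the KO range, and at 3.92 for Casp12.

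Markers of macrophages and monocytes were high in some livers with high Casp1 and not in others. In the control day 6 liver of mouse 303, where Casp1 was 7.74, the 12 tested macrophage and monocyte markers averaged 2.13 above their mean over all arrays. That was the highest of all 21 arrays. In KO livers the list ran -0.29 to 0.31 on day 0, -0.78 to 0.70 on day 2 and -0.31 to 1.33 on day 6. In control livers it ran -1.05 to -0.35 on day 0, -0.75 to -0.33 on day 2 and -0.72 to 2.13 on day 6. Itgam was the one marker of the list at or under 4 on every array. Ptprc, the pan-leukocyte gene for CD45, was 2.10 above its mean in the day 6 liver of mouse 303 too. In the same mouse Casp1 was 3.24 higher on day 6 than on day 0 and Casp4 2.87 higher, from a day 0 value of 1.45, near background. Casp12 was 0.87 higher, at 3.92, still near background. Casp4 was 4.32 there, under every KO array. The KO day 2 liver of mouse 250, lowest for Casp4 among KO livers, had the lowest KO value of the macrophage list, -0.78. Other livers went differently. In the control day 6 liver of mouse 392 the list averaged 0.87, while Casp1 (6.02) and Casp4 (3.45) were under every KO array. In the KO day 6 liver of mouse 337 it averaged -0.31, with Casp1 at 7.56 and Casp4 at 7.12. The mean of the 7 tested stellate cell and fibroblast markers, each centred on its mean over all arrays, lay between 0.09 and 2.12 in KO arrays and between -2.21 and -0.34 in control arrays, without overlap. The same mean over the 10 tested caspase substrates and DNA fragmentation genes did not overlap either. It lay between 0.02 and 0.34 in KO arrays and between -0.48 and -0.14 in control arrays. This holds for the mean and not for each gene. Parp1, a member of the list, lay on day 0 between 6.70 and 7.44 in KO livers and between 6.93 and 7.19 in control livers. Of the 7 stellate cell and fibroblast markers, 2 rose in control livers on day 2 against day 0, beside 9.51% of all genes. These were Col3a1 (2.52) and Pdgfrb (1.63), calls lost in 7 and 20 of 33 alternatives. Casp12 differed by 0.26 ± 0.42 over those days (limma, adjusted p = 0.724). Its control values lay close to background, between 3.05 and 4.89. The control day 2 arrays of mice 263 and 265 had high Gapdh differences (1.58 and 9.5). Whether Casp12 follows the stellate cell and fibroblast markers was not tested. In limma 6 of these 7 markers were higher in KO livers on day 0, 3 on day 2 and 1 on day 6, beside 9.66%, 5.71% and 1.73% of all genes called in either direction. Lum, the proteoglycan lumican, was higher by 4.31 ± 0.51 on day 0 (adjusted p = 2.23e-05). Col1a1, a chain of type I collagen, was higher by at least 3.01 on day 0, with all control values near background (adjusted p = 0.00214), and its day 2 call (adjusted p = 0.0479) was lost in 21 of 32 alternatives. Among 4 tested cholangiocyte markers, 1 was higher on each day: Tspan8, a tetraspanin, with at least 1.89, 0.30 and 1.01 over the level of 4 on days 0, 2 and 6 (adjusted p = 1.84e-06, 0.0247 and 0.000674) and all control values under it. Tspan8 thus passed the filter on low values through its KO arrays, which limits what its test can say. Its day 2 call was lost in 7 of 31 alternatives, among them leaving out any 1 of the KO day 2 arrays or control mouse 265 on day 2. In such bulk samples fewer cells of a type and less RNA per cell cannot be told apart, and the part of all these cells in the caspase values was not tested.

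Within the 6 KO day 0 livers, the 3 inflammatory caspases showed no correlation that passed the test. Pearson's r was -0.54 for Casp4 and Casp1 (Spearman's rho -0.71), 0.52 for Casp12 and Casp1 (rho 0.43) and 0.32 for Casp12 and Casp4 (rho 0.26). The adjusted exact permutation p, two-sided and over these 3 relations, was 0.479, 0.479 and 0.547 for r and 0.408, 0.629 and 0.658 for rho. Without the 2 livers farthest from the median of the first gene, r was 0.23, 0.48 and 0.18. Over all 21 arrays, which hold the genotype gap, Pearson's r was 0.92 between Casp4 and Casp12, 0.86 between Casp1 and Casp4 and 0.83 between Casp1 and Casp12, given as a description.

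By the same measure over 21 arrays, the gene closest to Casp12 was Gipc2 (r = 0.98), followed by Anxa5, a phospholipid-binding annexin (0.97), Cystm1, Nipal2 and Entpd2. Gipc2 was 6.64 to 7.91 in KO and 3.55 to 4.33 in control livers. The gene closest to Casp4 was Ubd, a ubiquitin-like modifier induced by interferon gamma and tumour necrosis factor (0.96; 6.11 to 9.74 in KO and 2.43 to 5.90 in control livers), followed by Anxa5, Ddr1, Uap1l1 and Klf6. The gene closest to Casp1 was Clec7a, the beta-glucan receptor of myeloid cells (0.93; 5.98 to 7.73 in KO and 4.01 to 6.31 in control livers), followed by Eif4e3, Adamdec1, Sirpa and Tax1bp3. None of these 14 genes lies on chromosome 9, and the lists of Casp4 and Casp12 share Anxa5.

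The neighbours of the 3 genes on chromosome 9 were measured as well, by their order in RefSeq. On the side of Casp1 the genes with a probe set were 4930433N12Rik, Msantd4 and Gria4, and on the side of Casp12 they were Pdgfd, Dcun1d5, Mmp13, Mmp12 and Mmp1b. Of these 8, 3 passed the filter on low values. Msantd4 had differences of 0.21, -0.57 and 0.17 (adjusted p = 0.643, 0.162 and 0.858) and Dcun1d5 of 0.52, 0.25 and 0.22 (adjusted p = 0.264, 0.659 and 0.856) on days 0, 2 and 6. Mmp12, the macrophage elastase, lay between 5.73 and 8.30 in KO livers and between 2.78 and 3.80 in control livers. All its control values were under 4, so that it passed the filter through its KO arrays, and the difference is at least 3.26, 2.09 and 2.43 over that level on days 0, 2 and 6 (adjusted p = 4.83e-07, 0.00145 and 0.00025). Its day 2 call was lost without the 3 arrays of high Gapdh difference (adjusted p = 0.113). Of the other 5, Mmp13, a collagenase, reached 5.24 in a KO liver and at most 2.67 in control livers, and the rest were under 4 on every array. Msantd4 and Dcun1d5 passed on no day.

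**Figure D5:**
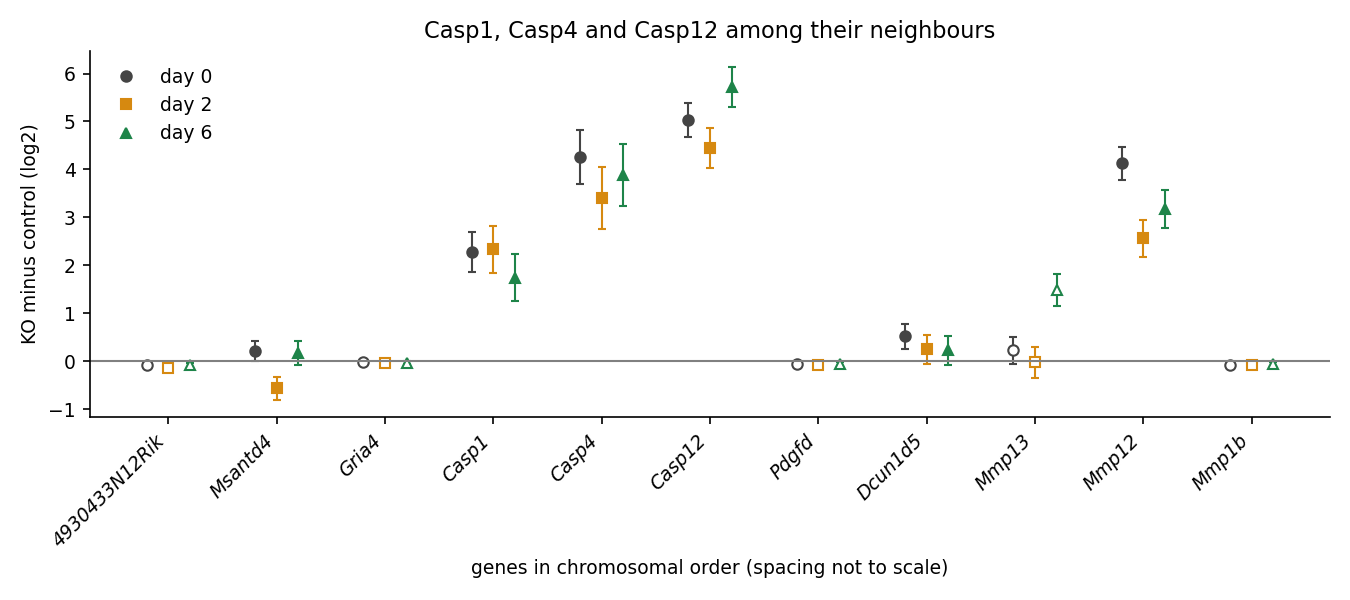
KO minus control difference in log2 expression of Casp1, Casp4, Casp12 and their nearest genes with a probe set, in chromosomal order and not to scale, on day 0 (circles), day 2 (squares) and day 6 (triangles) with SE bars; open symbols are genes near background that were not tested. The 3 caspases and Mmp12 lie at 1.74 or above on every day and Msantd4 and Dcun1d5 between -0.57 and 0.52.

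The pathways around these proteases were read from lists of genes, tested between genotypes beside the share of all genes called: 9.66% on day 0, 5.71% on day 2 and 1.73% on day 6 (limma, adjusted p under the threshold of 0.05). Of 6 tested genes of inflammasomes and pyroptosis, 1 was higher in KO livers on day 0 and 0 on days 2 and 6, where 0 and 2 had an unadjusted p under 0.05. It was Naip2, a sensor of bacterial type III secretion proteins, with 4.94 ± 0.43 in KO livers (SD, n = 6) and 3.39 ± 0.23 in control livers (n = 3; adjusted p = 0.0153), all control values at or under 4, a difference of at least 0.94 over that level. The call was lost without control mouse 263 or 265 on day 0. Of 9 tested genes of the IL-1 family and its receptors, 1 was lower on day 0 and 0 were higher. It was Il1rap, the accessory chain of the IL-1 receptor, with 10.35 ± 0.17 in KO livers and 11.42 ± 0.09 in control livers on day 0 (difference -1.07 ± 0.16, adjusted p = 0.000261). Il1rap was lower on day 6 too (-0.75 ± 0.19, adjusted p = 0.0485), a call that 20 of 32 alternatives lost, among them the random mouse block (adjusted p = 0.0542) and leaving out any 1 of the 6 arrays of day 6.

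Genes that induce or sense upstream of the inflammatory caspases gave 3 higher of 11 on day 0 and 0 on days 2 and 6 in limma, with 2 at an unadjusted p under 0.05 on each of the later days. Ly96, the lipopolysaccharide co-receptor MD-2, averaged 5.37 ± 0.33 in KO livers and 2.81 ± 0.11 in control livers on day 0 (adjusted p = 0.000627), at least 1.37 over the level of 4 since all control values were under it. Ifngr1, a chain of the interferon gamma receptor, averaged 6.38 ± 0.28 in KO livers and 5.34 ± 0.16 in control livers (adjusted p = 0.0094), a call lost without control mouse 265 on day 0. Cd14, the lipopolysaccharide co-receptor of myeloid cells, averaged 7.46 ± 1.12 in KO livers and 3.17 ± 0.75 in control livers (at least 3.46 over the level of 4; adjusted p = 0.0451), and that call was lost in 17 of 32 alternatives, among them leaving out any 1 of the 9 day 0 arrays. Beside them stood the macrophage genes Mpeg1 (1.79 ± 0.39, adjusted p = 0.00568, lost without control mouse 265 on day 0) and Lyz2 (2.46 ± 0.75, adjusted p = 0.0432, lost in 15 of 32 alternatives), the 2 of 12 macrophage and monocyte markers that were higher in KO livers on day 0. Of that list 0 passed on day 2 and 1, the scavenger receptor Marco, was lower in KO livers on day 6 (by at least 4.47 in size, since all KO values were at or under 4 and the gene passed the filter through control arrays; adjusted p = 0.0421), a call that 18 of 32 alternatives lost, among them leaving out control mouse 303 or 392 on day 6.

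On day 6 against day 0, 0.137% of all genes were called in KO livers and 2.86% in control livers. Over time, Irf7, the interferon regulatory factor that amplifies type I interferon, was the list member that rose in both genotypes. It averaged 8.22 ± 2.07 on day 6 and 4.29 ± 0.32 on day 0 in KO livers (3.93 ± 0.69, adjusted p = 0.0169), and 7.05 ± 1.92 on day 6 and 3.26 ± 0.33 on day 0 in control livers (at least 3.05, with the day 0 values under 4; adjusted p = 0.0134). With the mouse as a fixed block both calls were lost (adjusted p = 0.0706 in KO and 0.643 in control livers), and 1 control mouse alone then gives the control value. The KO call was also lost without mouse 312 or mouse 332 on day 6, and the control call without mouse 263 or 265 on day 0 or mouse 392 on day 6. Txnip, a partner of the NLRP3 inflammasome, was lower in control livers on day 6 (7.13 ± 0.80) than on day 0 (9.39 ± 0.50; adjusted p = 0.0125, and 0.614 with the fixed mouse block), a call also lost without control mouse 263 or 265 on day 0. Of the pathway lists, 3 tested members rose in control livers on day 2 against day 0, beside 9.51% of all genes called in either direction. They were 1 of 11 genes upstream of the inflammatory caspases, 1 of 9 death receptor genes and 1 of 25 endoplasmic reticulum stress genes. No gene of the other pathway lists rose. Ly96 rose by at least 0.68, its day 0 values being near background. Fas, a death receptor, rose by 1.22 ± 0.35 and Eif2ak3, the stress sensor kinase PERK, by 1.04 ± 0.29. The adjusted p in limma was 0.0267, 0.0345 and 0.0313. These calls were lost in 7 of 32, 8 of 33 and 7 of 32 alternatives, in each case without control mouse 265 on day 2, the array with the highest Gapdh difference. On day 6 Irf9, a subunit of the interferon-stimulated transcription complex, and Birc5, the mitotic protein survivin, rose in control livers, Irf9 by 1.80 ± 0.45 and Birc5, with all day 0 values near background, by at least 3.13 (adjusted p = 0.0382 and 0.0103), and neither call held with the fixed mouse block (adjusted p = 0.667 and 0.732) or without control mouse 392 on day 6 or 265 on day 0. Of 12 tested macrophage and monocyte markers, 2 rose in control livers on day 6 against day 0. These were Marco (5.78, with all day 0 values near background) and Mpeg1 (2.65), calls lost in 8 and 2 of 33 alternatives. Casp1, Casp4 and Casp12 themselves passed no test over these days on the full set of arrays.

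In the lists around the apoptotic caspases calls were few. Of 9 tested death receptor genes and 5 inhibitors of apoptosis proteins, 0 passed between genotypes on any day in limma's test. At an unadjusted p under 0.05 there were 2, 2 and 0 death receptor genes and 2, 1 and 0 inhibitors on days 0, 2 and 6. The death receptor gene with the smallest adjusted p was Tnfrsf1a, a receptor of tumour necrosis factor, on day 0 (0.69 ± 0.25, adjusted p = 0.0949), Dedd on day 2 (-0.61 ± 0.18, adjusted p = 0.0577) and Tradd, the adaptor of Tnfrsf1a, on day 6 (-0.23 ± 0.22, adjusted p = 0.769). Of 16 tested genes of the mitochondrial pathway, which feeds Casp9, 2 were lower in KO livers on days 0 and 2 and 0 passed on day 6, with 3 at an unadjusted p under 0.05. Bik, a BH3-only activator, averaged 3.83 ± 0.28 in KO livers and 5.88 ± 0.26 in control livers on day 2 (-2.05 ± 0.41, adjusted p = 0.0102), a call lost with array weights and without the 3 arrays of high Gapdh difference. Endog, a mitochondrial nuclease, was lower on day 0 (-0.88 ± 0.25, adjusted p = 0.03) and day 2 (-1.03 ± 0.29, adjusted p = 0.0409), calls lost in 5 and 15 of 32 alternatives. Bik was lower on day 0 as well (-1.15 ± 0.36, adjusted p = 0.0486), which 20 of 30 alternatives lost, the random mouse block among them (adjusted p = 0.0559). The KO medians of Bik, 4.01 on day 0 and 3.87 on day 2, lay close to the background level of 4, which limits what the size of both differences means.

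Of 10 tested caspase substrates and DNA fragmentation genes, the same 2 were higher in KO livers on all 3 days. Gsn, the actin-severing protein gelsolin, averaged 8.89 ± 0.27, 8.46 ± 0.35 and 8.41 ± 0.78 in KO livers on days 0, 2 and 6, and 6.57 ± 0.21, 7.19 ± 0.55 and 6.28 ± 0.36 in control livers (adjusted p = 3.99e-05, 0.0362 and 0.00148). Sptan1, the cytoskeletal alpha spectrin, lay between 9.64 and 10.36 in KO livers and between 8.39 and 8.56 in control livers on day 0. It was higher by 1.60 ± 0.21, 1.29 ± 0.25 and 1.27 ± 0.25 on days 0, 2 and 6 (adjusted p = 6.58e-05, 0.00793 and 0.00875). Both are cytoskeletal proteins and are listed because caspases cut them. The day 2 calls of both were lost without KO mouse 254 and without the 3 arrays of high Gapdh difference, that of Gsn also without KO mouse 258 or control mouse 264, and the day 6 call of Sptan1 without KO mouse 337.

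For endoplasmic reticulum stress, the setting in which Casp12 was described in the mouse, 1 of 25 tested genes passed between genotypes on day 0 and 0 on days 2 and 6, with 3 and 1 at an unadjusted p under 0.05. It was Eif2ak3, with 6.94 ± 0.32 in KO livers and 5.62 ± 0.22 in control livers (adjusted p = 0.0017 in limma). The list's median difference was 0.17, 0.14 and 0.09 on days 0, 2 and 6, beside 0.02, -0.03 and -0.03 over all genes. Herpud1, a part of the degradation machinery of the endoplasmic reticulum, fell in control livers on day 2 (-1.04 ± 0.29, adjusted p = 0.0323) and day 6 (-1.23 ± 0.29, adjusted p = 0.0251), calls lost in 8 and 6 of 33 alternatives. The PIDDosome list, tied to Casp2, held 1 tested gene, Cradd, which had differences of -0.30, -0.37 and -0.25 on days 0, 2 and 6 (adjusted p = 0.561, 0.483 and 0.835).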

How the data were processed

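Total RNA of 21 liver samples from 6 KO and 6 control mice was extracted with Trizol and labelled with biotin by a 3-prime IVT protocol, per the labels. The deposited log2 values of 22690 probe sets had been made with GCRMA, per the submitters' processing notes (version not given), and no other step is recorded there. Array medians lay between 3.8 and 4.1. The number of arrays limits precision.

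Groups were taken from the labels. Probe sets with 1 gene symbol (20380) were used, with GRCm38.p6 RefSeq names, and the probe set with the highest mean stood for a gene. Genes above log2 4 in at least 3 arrays were tested (7320). 1 limma model (lmFit, eBayes; limma 3.58.1, R 4.3.3) of all 6 groups gave differences, SE and two-sided Benjamini-Hochberg adjusted p over all tested genes (threshold 0.05); it was tested on simulated data. Differences are KO minus control or later minus day 0.

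Members and lists were chosen with earlier results of these data known. Named genes were all caspases, Abcb4, for each list the called genes that differed most (up to 4) or else the one of smallest p, the 5 genes most like Casp1, Casp4 and Casp12 over the arrays, and up to 5 neighbours a side. Alternatives covered filters, probe set choice, scaling, weights, mouse blocks and single arrays. Samples of 1 mouse come from the same animal; their deviations from group means correlated by -0.0568 to 0.303 (median 0.119) over 9 pairs. Figures used matplotlib 3.10.9.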

Additional observations from a re-analysis of the deposited data

Results flagged for a closer look

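For Casp2 on day 2 against day 0, the 3 KO mice measured on both days differed by -0.03, -0.01 and -0.15, and the 2 control mice by 0.02 and 0.66, so the signs were opposite, with a mean difference, KO minus control, of -0.4033. This comparison of single mice was not tested; the interaction over all arrays was -0.26 ± 0.56 (limma, adjusted p = 0.852). No opposite movement is shown by this: the values nearest to 0 were -0.01 and 0.02, control mouse 263 was under the level of 4 on both days (3.10 and 3.08), and the day 2 array of control mouse 265 had the highest Gapdh difference, 9.5. Of 10 probe sets examined in the 6 KO day 0 livers, 0 had a liver that stood apart by Dixon's criterion.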

How the results depend on the processing

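Over 32 settings, 21 of them with a single array left out, the KO minus control differences of Casp1, Casp4 and Casp12 kept their sign on all 3 days. The day 2 difference of Casp12 was 5.38 without the 3 arrays of high Gapdh difference, which leaves 1 control liver, against 4.44 with them. Leaving out 1 array moved the day 2 difference of Casp4 between 2.91 (without KO mouse 258) and 4.34 (without KO mouse 250), and the day 6 difference of Casp1 between 1.07 (without control mouse 393) and 2.51 (without control mouse 303). It moved the number of caspases called in control livers between 0 and 2 on day 2 against day 0 (2 without control mouse 263) and between 0 and 1 on day 6 against day 0 (1 without control mouse 393). Of 1380 caspase time results under an alternative, 55 turned sign without a call and 3 passed the threshold; the cause was not tested.

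With the mouse as a replicate block, random or fixed, 0 caspases passed over time, as without it; the fixed block gave Casp1 on day 6 against day 0 in control livers as 3.24, from 1 mouse (adjusted p = 0.0647). Counts over all genes depended more on the setting. Between genotypes, the 707 genes called on day 0 became 357 to 1414, the 418 on day 2 became 18 (with the compared groups alone) to 1161, and the 127 on day 6 became 38 to 275. Within KO livers the 0 genes on day 2 became up to 140 and the 10 on day 6 became 2 to 45. Within control livers the 696 genes on day 2 became 27 to 1283 and the 209 on day 6 became 0 (fixed mouse block) to 571. For the response, the 0 genes on day 2 became up to 228 and the 12 on day 6 became 0 to 50. Levels near background limit what can be said of Casp4 and Casp12 in control livers, and 3 livers in most groups limit the time tests.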
